A study of Sus scrofa with 12 samples.

Results

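Some stretches of the pig genome gave ATAC-seq reads, for the most part few, in the muscle of one breed and almost none in the other. These regions were taken as the autosomal peak intervals with 5 or fewer reads in one breed and 20 or more in the other, with overlapping intervals merged and the longest kept. There were 548 of them among 136586 merged autosomal regions, 455 higher in Duroc and 93 higher in Luchuan. The regions were chosen by the read counts themselves, so these counts and every fold change below are a description and carry no test.

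Chromatin accessibility was measured by ATAC-seq in the longissimus dorsi, the long muscle of the back, of 3 boars of the lean Duroc breed and 3 of the Chinese Luchuan breed. All boars were 180 days old, had been fed alike and were fasted overnight before sampling. The deposited table gives 1 read count per region and breed, so the boars of a breed could not be separated and no value has a spread between animals. The merged autosomal regions held 20275377 Duroc reads and 13459633 Luchuan reads, with medians of 61 and 38 reads per region.

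ATAC-seq uses a transposase that cuts and tags DNA where it is not wrapped tightly on nucleosomes. Reads pile up at open promoters and enhancers, and closed chromatin still gives a thin background of reads. A region can therefore lack reads because its chromatin is closed, because the animals do not carry that sequence, or because their sequence differs from the reference too much for reads to align. The reference Sscrofa11.1 was assembled from a Duroc pig, so sequence carried by Luchuan pigs alone has no place in it. Genomic DNA reads of these boars were not analysed here, and with 1 count per breed such situations cannot be told apart. The sequences of the regions were not analysed here, and the annotation used gives gene starts and ends without strand, exons or introns.

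The tissue label was checked first. The myofibre marker genes held 258 regions, among them 7 regions at ACTA1, the skeletal muscle actin gene, with 3775 Duroc and 2402 Luchuan reads, and 11 regions at TNNT3, the fast troponin T gene, with 6933 and 3721 reads. Marker genes of other cell types held fewer regions, with 17 for satellite cells, 5 for adipocytes, 8 for endothelium, 11 for fibroblasts and 10 for macrophages, and none at the endothelial gene CDH5 or the Schwann cell gene SOX10. The lists differed in length, with 9 myofibre genes against 2 or 3 for each other cell type, and TTN alone held 186 regions. The satellite cell gene PAX7 held 16, more than ACTA1 or TNNT3. These totals therefore show open myofibre genes and do not compare cell types. None of the 309 regions at marker genes was nearly without reads in one breed, but over all autosomal regions the share was only 0.401%, so a number this small cannot be read as a difference.

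Of the 116214 regions with 20 or more Duroc reads, 455 had 5 or fewer Luchuan reads, which is 0.392%. Of the 101506 regions with 20 or more Luchuan reads, 93 had 5 or fewer Duroc reads, which is 0.0916%. In either direction the share was 0.455% of 120531 regions. The split between the breeds depended on scaling, since the regions held more Duroc than Luchuan reads. Whether this excess came from library depth alone or also from the share of reads in peaks was not tested. With the Luchuan reads multiplied by 1.48, the factor that brings the median ratio of the breeds to 1, the same limits gave 150 regions higher in Duroc and 494 higher in Luchuan. With the Duroc reads divided by that factor instead, they gave 146 and 253. The breed with more such regions was therefore Duroc on the reads as deposited and Luchuan after either scaling. Multiplying the Luchuan reads could not remove a Luchuan region, so all 93 necessarily stayed within the limits. With whole-number counts it lowered the limit for Luchuan reads from 5 to 3, which 150 of the 455 Duroc regions met.

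**Figure D1:**
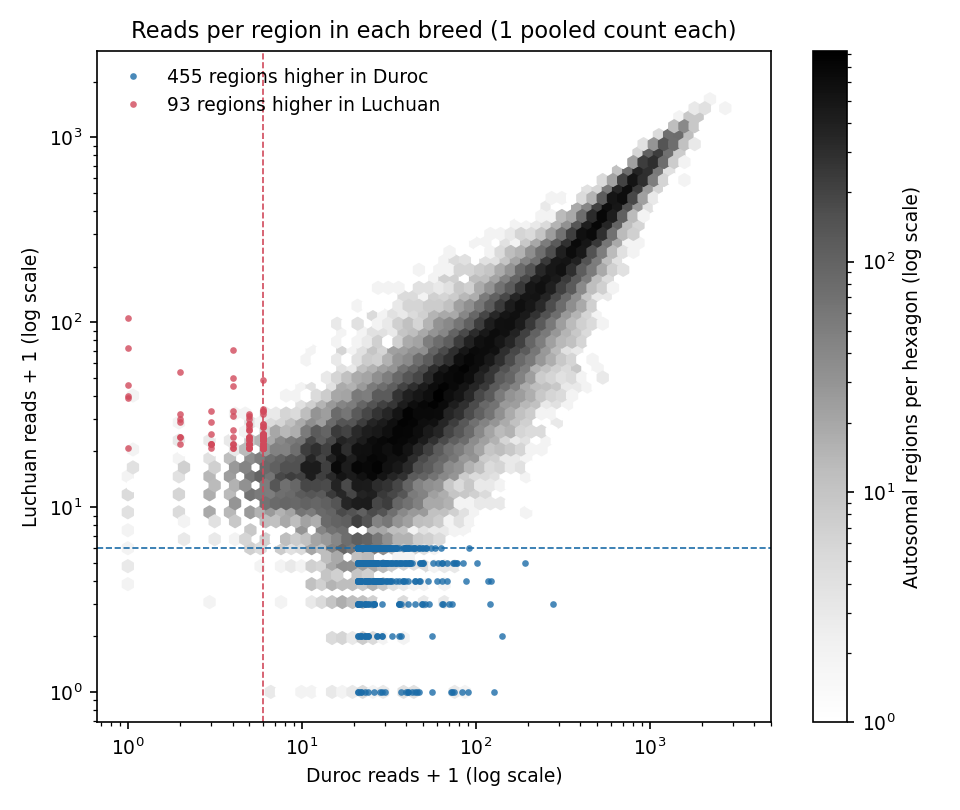
Reads per merged autosomal region in Duroc (x axis) and Luchuan (y axis), each with 1 added, on log axes; grey hexagons count all 136586 regions, and coloured points are the 455 regions higher in Duroc and the 93 higher in Luchuan. Dashed lines mark 5 reads; most coloured points sit close to the limit of 20 reads, and a few lie far out, up to 276 Duroc reads.

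Most of these regions were weak. Those higher in Duroc had a median of 25 Duroc reads (interquartile range, 22 to 33.5) and 4 Luchuan reads, and 375 of them, or 82.4%, had under 40 Duroc reads. Those higher in Luchuan had a median of 23 Luchuan reads (21 to 28) and 4 Duroc reads, and 85 of them, or 91.4%, had under 40. They were short as well, with median lengths of 173 and 188 bases, against 285 bases for all regions with 20 or more Duroc reads and 317 for those with 20 or more Luchuan reads. Just inside the limits, 185 Duroc regions had exactly 5 Luchuan reads and 55 had exactly 20 Duroc reads. Just outside them, 325 had 6 Luchuan reads and 57 had 19 Duroc reads. In Luchuan these counts were 41 and 20 inside, and 68 and 26 outside. The limits thus cut through a continuous range of values.

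The fold change between breeds was computed with Luchuan reads multiplied by 1.48. Its 95% Clopper-Pearson interval covers counting error only, because each breed has 1 count. Copies of 1 molecule cannot be recognised among these reads, and any such copies would make the interval too narrow. The interval rests on the counts that chose the regions and is given only to show how precise they are. It reached 1 or less for 24 of the 455 Duroc regions and lay wholly above 4-fold for 47 of them and for 23 of the 93 Luchuan regions. All but 2 regions were called as peaks in the high breed alone. The exceptions were called in both breeds as part of a wider interval. One of them, on chromosome 3 from 55146395 to 55146544, was counted with 77 Duroc and 4 Luchuan reads. It lies inside an interval with 263 Duroc and 39 Luchuan reads, so the near absence of Luchuan reads covered only a part of that open region.

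Among the stronger regions, more had no read in the other breed than had 1 read, but similar numbers of the Duroc ones had 2 or 3. Of the 86257 regions with 40 or more Duroc reads, 13 had no Luchuan read, 2 had 1, 12 had 2, 12 had 3, 22 had 4 and 18 had 5, and from 6 reads on the numbers rose steadily, from 36 to 256 at 14 reads, apart from 155 at 11 and 151 at 12. Of the 66676 regions with 40 or more Luchuan reads, 3 had no Duroc read, 1 had 1, none had 2, 3 had 3, none had 4 and 1 had 5. Among regions with 20 to 39 Duroc reads the number did not fall from 0 reads to 1, with 12 regions at 0 Luchuan reads, 18 at 1, 23 at 2 and 58 at 3.

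**Figure D2:**
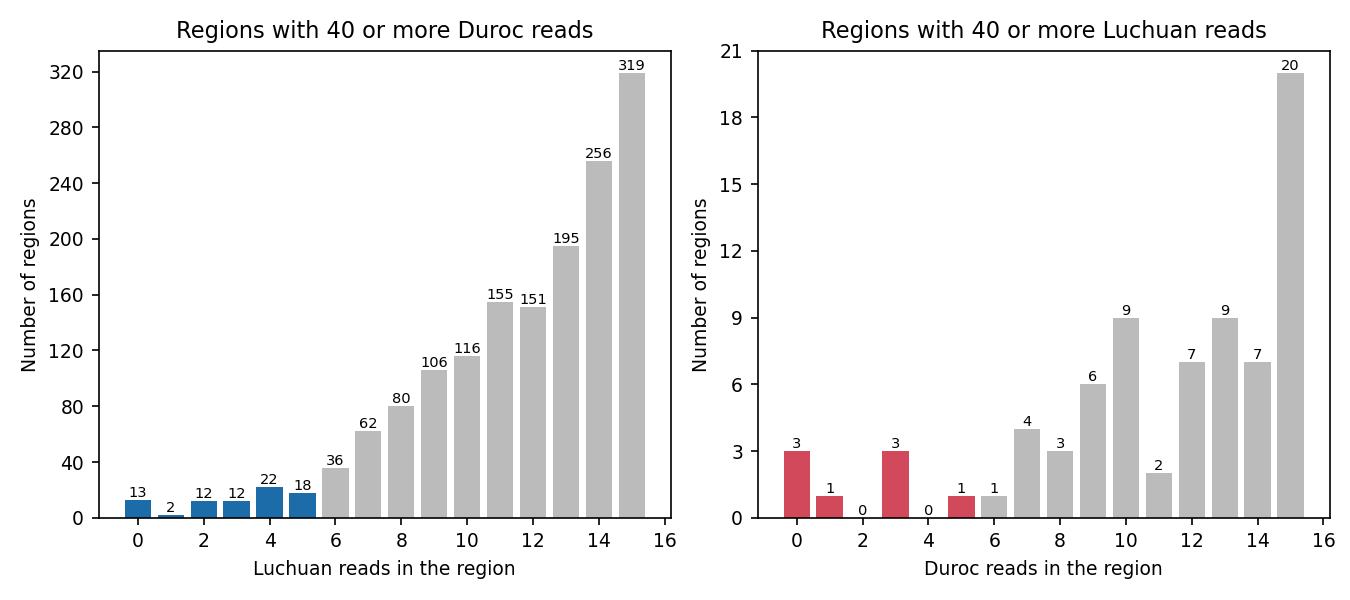
Number of autosomal regions (y axis) by the reads they had in the other breed (x axis), for regions with 40 or more Duroc reads (left) and 40 or more Luchuan reads (right); coloured bars are within the limit of 5 reads. On the left 13 regions had 0 Luchuan reads, 2 had 1, 12 had 2 and 12 had 3, before the numbers rise from 36 at 6 reads.

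In all, 25 Duroc regions had no Luchuan read and 6 Luchuan regions had no Duroc read. A typical region of either breed was far from empty. Over all autosomal regions the median was 151 Luchuan and 235 Duroc reads per kb, and 1% of the regions lay below 33.3 and 35.7. Of the 43196 autosomal regions called in Duroc alone, 1% lay below 22.8 Luchuan reads per kb, and of the 26365 called in Luchuan alone, 1% lay below 20 Duroc reads per kb. The regions described here had a median of 22.3 reads per kb in the low breed in both directions, and at most 33.3, a ceiling that follows from 5 reads in the shortest interval of 150 bases.

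The strongest region without any read in Luchuan lay on chromosome 5 from 22282588 to 22283233, inside LOC100512656, which spans 22277006 to 22285534. It was 646 bases long and had 126 Duroc reads and 0 Luchuan reads, 28.4-fold higher in Duroc when the zero is set at 3 reads. A weaker region less than 1 kb away had 14 Duroc reads and 1 Luchuan read. The nearest regions with 20 or more Luchuan reads lay 8.89 kb and 7.78 kb away, so the stretch without such a region between them was 17.3 kb. On the far side of this stretch, 171 Duroc and 68 Luchuan reads were counted at 22291015 to 22291525.

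ALDH1L1, a gene of folate metabolism, is annotated on chromosome 7 and held another region of this kind, from 53762195 to 53762353. It had 89 Duroc reads and 0 Luchuan reads, at least 20-fold higher in Duroc. Its surroundings were alike in both breeds. The region 2.05 kb away had 779 Duroc and 578 Luchuan reads, the one 8.78 kb away on the other side had 105 and 108, and over the 4 other regions within 10 kb the log2 ratio, Luchuan over Duroc, had a median of 0.13. The drop to 0 was thus limited to a stretch of at most 11 kb.

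A further one lay between genes on chromosome 4 from 61621614 to 61621835, 6.58 kb from JPH1, which encodes junctophilin 1, a protein that ties the sarcoplasmic reticulum of muscle fibers to the surface membrane. It had 74 Duroc reads and 0 Luchuan reads. The flanking regions had 24 Duroc and 21 Luchuan reads on one side and 130 and 80 on the other, 8.38 kb apart, which was the shortest such stretch among the 25 Duroc regions without a Luchuan read. The median stretch was 52.2 kb and the longest 446 kb, and for 3 regions it was 10 kb or less.

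The other genes holding a region with Duroc reads and 0 Luchuan reads included GAS2, which encodes an actin-associated protein, with 71 Duroc reads, SEC22C of vesicle transport with 45, HS1BP3 with 36, NCOA1, a coactivator of nuclear receptors, with 20, and CCDC91 with 20. At HS1BP3 the region 1.30 kb away had 149 Duroc and 88 Luchuan reads. On chromosome 3, a pair of regions between genes, from 6919477 to 6919727 and from 6919907 to 6920220, had 39 and 82 Duroc reads and no Luchuan read between them.

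The strongest region of the opposite kind lay inside DTNA, which encodes dystrobrevin alpha, a cytoplasmic partner of dystrophin at the muscle membrane. DTNA spans 118333069 to 118753516 on chromosome 6, and the region spans 118688236 to 118688524. It had 105 Luchuan reads and 0 Duroc reads, at least 51.8-fold higher in Luchuan, which was the largest count of Luchuan reads among the 93. Only 125 bases away, from 118687466 to 118688110, the breeds had 274 Duroc and 234 Luchuan reads. On the other side, 5.50 kb away, another had 112 Duroc and 47 Luchuan reads. The stretch between these flanking regions, 5.91 kb, was the shortest of the 6 Luchuan regions without a Duroc read, whose median was 21.6 kb. The median log2 ratio of the 5 other regions within 10 kb was 0.05.

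The other Luchuan regions without a Duroc read differed in their surroundings. On chromosome 1 from 26683211 to 26683457, between genes, 72 Luchuan reads stood against 0 Duroc reads, while 85 Luchuan and 16 Duroc reads were counted just beside it, at 26682776 to 26683013. On chromosome 14, LOC110256689 held 2 regions of this kind and no other region, with 45 and 23 Luchuan reads against 0 and 1 Duroc reads. At TTLL11, a tubulin polyglutamylase gene on chromosome 1, the region from 262007617 to 262007861 had 38 Luchuan reads and 0 Duroc reads, and its weaker neighbours had 17 and 16 Luchuan reads against 0 and 1 Duroc reads. Around the region of chromosome 1 from 109064531 to 109064739, with 39 Luchuan reads and 0 Duroc reads, the 1 other region within 10 kb had a log2 ratio of -0.47, towards Duroc.

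**Figure D3:**
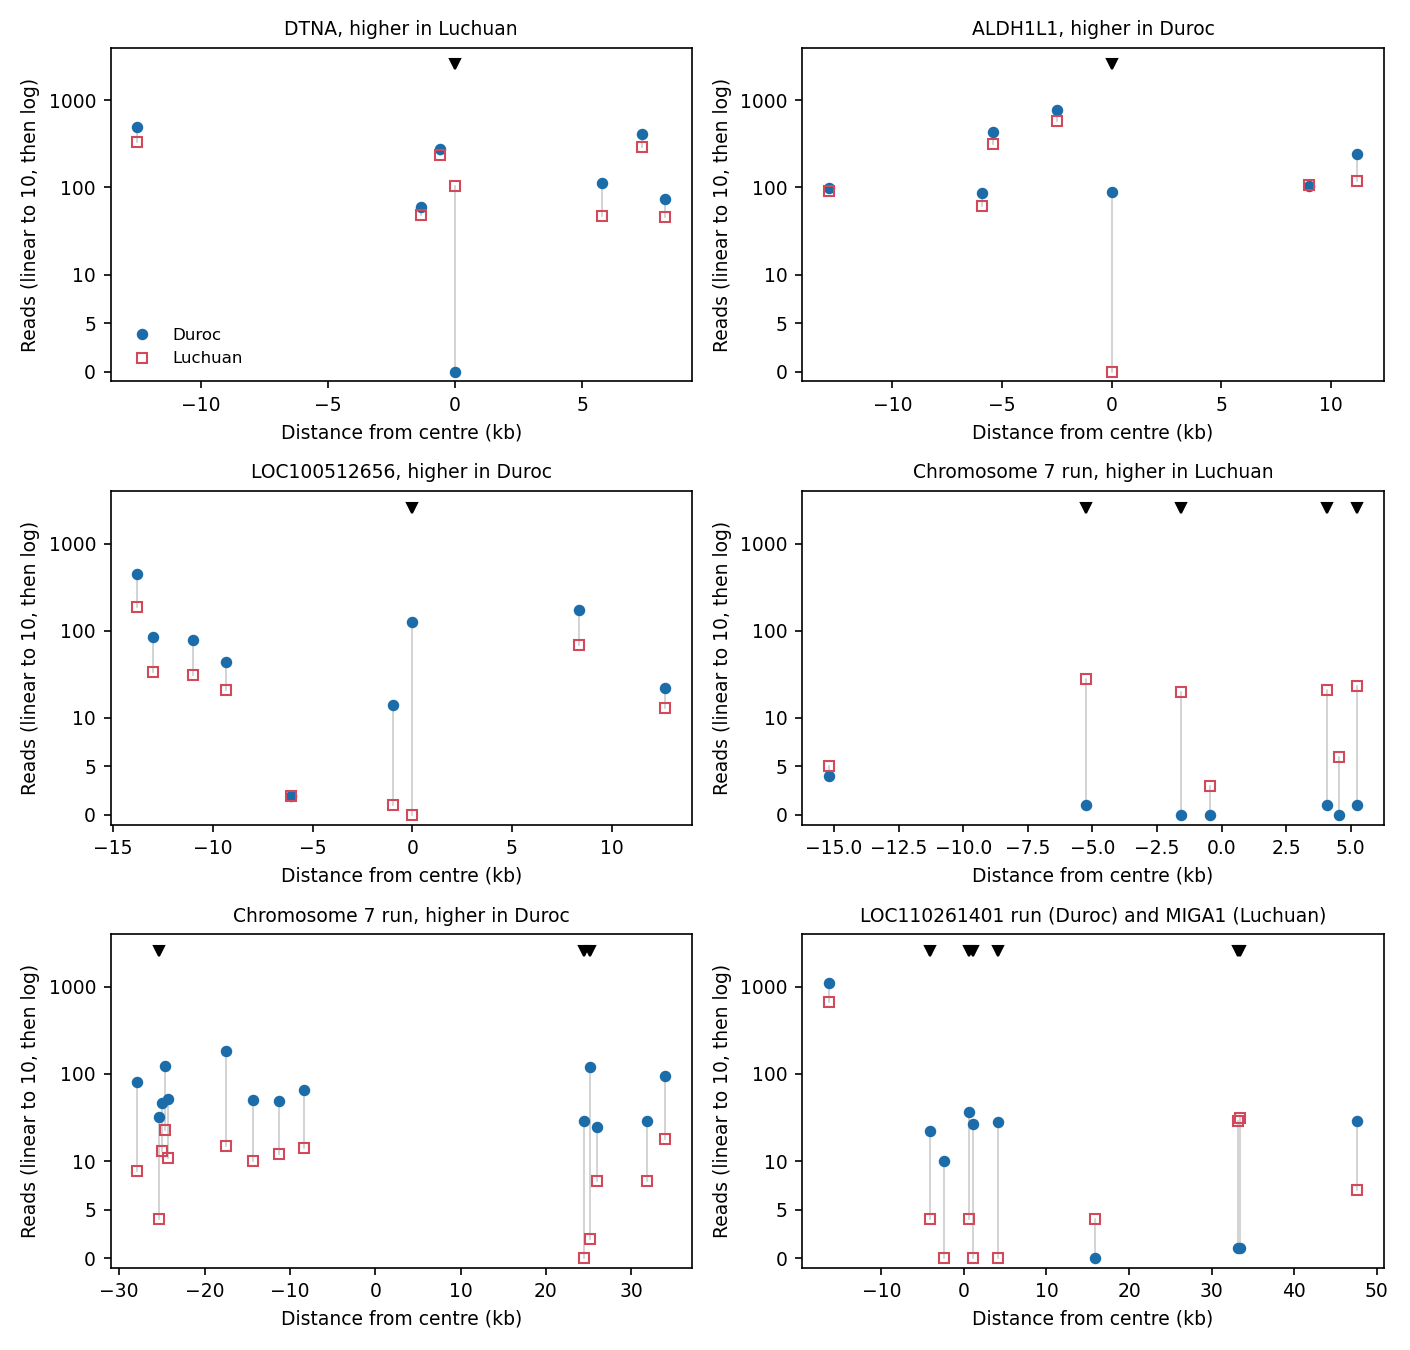
Reads of each region (y axis, linear up to 10 and logarithmic above) in Duroc (filled circles) and Luchuan (open squares) against the distance in kb from the centre of the region or run, at 6 loci; grey lines join the values of a region and black triangles mark the regions nearly without reads in one breed. At DTNA and ALDH1L1 a single region falls to 0 between neighbours alike in both breeds. At the chromosome 7 run higher in Duroc, all 11 other regions shown were at least 2-fold higher in Duroc. At the one higher in Luchuan, the 3 other regions were weak, with 3, 6 and 5 Luchuan reads against 0, 0 and 4 Duroc reads.

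By reads in the high breed, the 10 strongest Duroc regions ran from 276 down to 89 reads. The first lay on chromosome 2 from 149961617 to 149962094, between genes, with 276 Duroc and 2 Luchuan reads, a ratio of 93.3 (95% interval, 25.6 to 774). Only 1.34 kb away a region had 360 Duroc and 240 Luchuan reads. On chromosome 5 from 95184676 to 95185061, 192 Duroc and 4 Luchuan reads were counted, a ratio of 32.4 (12.5 to 120). At POP1, which encodes a subunit of ribonuclease P, the region from 38638622 to 38639059 of chromosome 4 had 141 Duroc reads and 1 Luchuan read, a ratio of 95.3 (16.8 to 3790).

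The others of these 10 included CRYL1, which encodes lambda-crystallin, with 122 Duroc and 3 Luchuan reads, and NBAS, a gene of transport between Golgi and endoplasmic reticulum, with 116 and 3. KHDRBS2, which encodes an RNA-binding protein, had 101 and 4. The surroundings again differed. At CRYL1 the median log2 ratio of the 2 other regions within 10 kb was -0.09. At NBAS that of 6 regions was -1.64, and the regions next to it on either side had 79 and 119 Duroc reads against 14 and 12 Luchuan reads. No other region lay within 10 kb of the one on chromosome 2 from 142815951 to 142816375, which had 90 Duroc and 5 Luchuan reads, 0.495 kb from LOC110259512.

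The 10 strongest Luchuan regions ran from 105 down to 38 reads, and 5 of them had no Duroc read. Among the other 5, on chromosome 14 from 6127930 to 6128251, 70 Luchuan and 3 Duroc reads gave a ratio of 34.5 (11.3 to 171), and on chromosome 8 from 54507805 to 54508042, 53 and 1 gave 78.4 (13.5 to 3160). WDR91, an endosomal protein gene on chromosome 18, had 49 Luchuan and 3 Duroc reads, with 2 other regions nearby at a median log2 ratio of 0.10. On chromosome 13 from 194335483 to 194335813 the reads were 44 and 3, in a stretch where the nearest regions with 20 or more Duroc reads lay 1610 kb and 502 kb away. The last, on chromosome 5 from 40183033 to 40183197, counted 48 Luchuan and 5 Duroc reads and sat in a group of wide regions that were all higher in Luchuan. The regions beside it had 358 and 269 Luchuan reads against 48 and 31 Duroc reads, and 1 at 7.38 kb had 493 against 53. At 12.9 kb the direction ended, with 540 Duroc and 265 Luchuan reads.

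Whether the surroundings shared the difference was then measured over all regions, as a log2 ratio with Luchuan over Duroc, after scaling and with 1 added to each count. These neighbouring regions were not used to choose the members. Within 1 kb of a Duroc region, 84 of 153 other regions were at least 2-fold higher in Duroc, which is 54.9%, against 5.13% of all 136038 other autosomal regions, and their median was -1.09. The share fell to 34.7% at 1 to 2 kb, 21.5% at 2 to 5 kb, 15.3% at 5 to 10 kb, 8.46% at 20 to 50 kb and 6.11% at 100 to 200 kb. Around regions just outside the limit, with 6 to 10 Luchuan reads, the share was 22.7% within 1 kb and 7.90% at 5 to 10 kb.

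Around Luchuan regions the shift was wider. Within 1 kb, 23 of 27 other regions were at least 2-fold higher in Luchuan, which is 85.2%, against 7.19% of all other autosomal regions, and their median was 2.67. The share was 66.7% at 1 to 2 kb, 52.9% at 2 to 5 kb, 32.4% at 5 to 10 kb, 25.3% at 10 to 20 kb, 15.9% at 20 to 50 kb and still 11.4% at 100 to 200 kb. No region within 10 kb was 2-fold higher in Duroc. Just outside the limit, with 6 to 10 Duroc reads, the share was 68.2% within 1 kb and 21.4% at 5 to 10 kb. Regions within 1 kb can be parts of the same open stretch, and these counts are not independent of each other. The limits were set on unscaled reads and were stricter for Luchuan regions once reads were scaled. By these limits alone, the 95% interval of the fold change had to lie wholly above 2-fold for all 93 Luchuan regions. It did so for only 146 of 455 Duroc regions. The wider shift around Luchuan regions is thus a contrast between sets of unequal strength, and sets of equal strength were not compared.

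**Figure D4:**
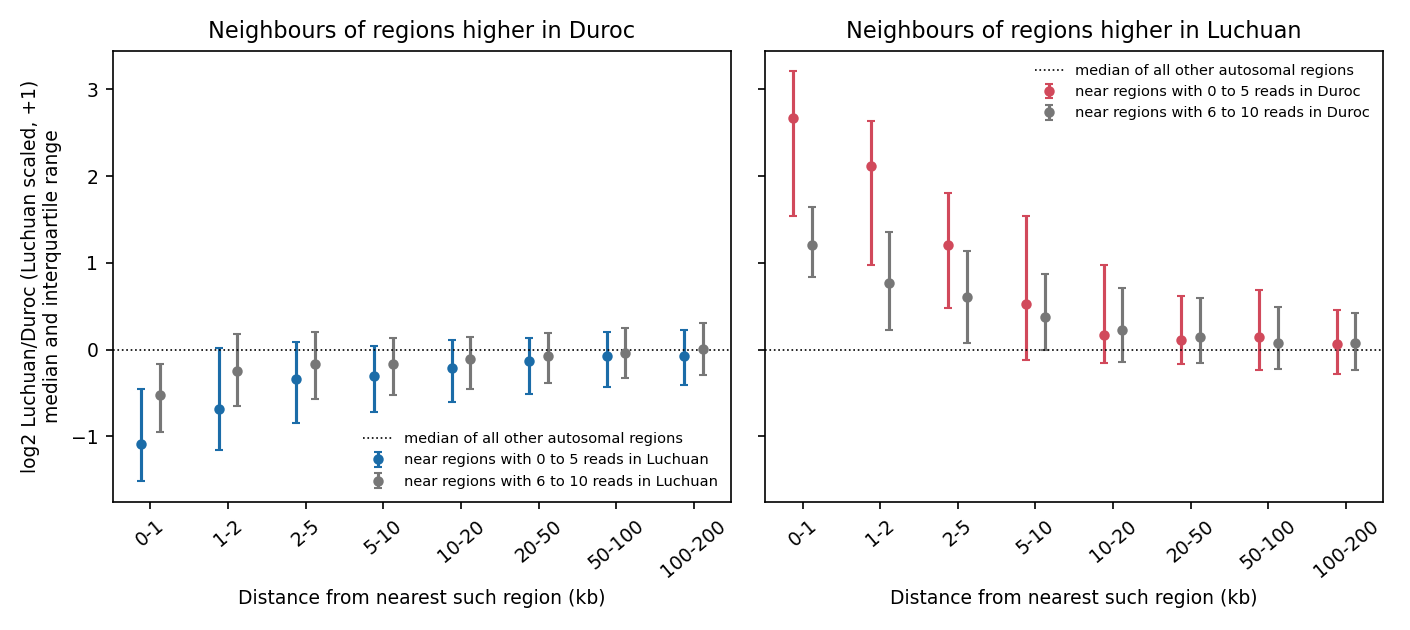
Median log2 ratio, Luchuan over Duroc reads (y axis; Luchuan scaled, 1 added; bars show the interquartile range) of other autosomal regions, by their distance in kb from the nearest region with 0 to 5 reads (coloured) or 6 to 10 reads (grey) in the low breed. Around Duroc regions the median returns from -1.09 to -0.30 at 5 to 10 kb, and around Luchuan regions from 2.67 to 0.53.

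Counted per region, 360 of the 455 Duroc regions had another region within 10 kb. For 270 of them, or 75%, the median of these neighbours differed by less than 2-fold between breeds, for 88 it was at least 2-fold higher in Duroc and for 2 in Luchuan. Of the 93 Luchuan regions, 54 had a neighbour, with 21 under 2-fold and 33, or 61.1%, at least 2-fold higher in Luchuan. As above, the Duroc and Luchuan sets differ in strength. Among the regions without any read in the low breed, 12 of 17 Duroc regions and 3 of 6 Luchuan regions with neighbours had them under 2-fold.

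Few of the regions formed runs. With a gap of at most 100 kb, 57 Duroc regions, or 12.5%, formed 26 runs, of which 22 were pairs, 3 held 3 regions and 1 held 4. In Luchuan 12 regions, or 12.9%, formed 5 runs, 4 pairs and 1 of 4 regions. Runs of directly consecutive regions, with no other region between, took in 19 Duroc and 6 Luchuan regions. Some of these were nearly adjoining pairs that can be parts of the same open stretch. The pairs at KIAA0895, FAM155A and MIGA1 spanned 0.331, 0.371 and 0.420 kb. Such pairs also count in the shares that follow. Where the next region along the chromosome had 20 or more reads in the same high breed, it was itself a member in 10 of 371 Duroc cases, or 2.70%, against the 0.392% of all such regions, and in 3 of 57 Luchuan cases, or 5.26%, against 0.0916%.

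The run of 4 in Luchuan lay on chromosome 7 from 47110875 to 47121617, a span of 10.7 kb that lies 74.8 kb from the nearest annotated gene, LOC106504565. Its regions had 28, 20, 21 and 23 Luchuan reads and 1, 0, 1 and 1 Duroc reads. The other 2 regions inside the span, with 3 and 6 Luchuan reads, had no Duroc read either, so 6 regions in a row held 3 Duroc reads in all. The stretch around it without a region of 20 or more Duroc reads was 172 kb, in which Luchuan reads were also sparse, and the last region before the run had 5 Luchuan and 4 Duroc reads.

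The run of 4 in Duroc lay in LOC110261401 on chromosome 6, from 135394662 to 135403030, a span of 8.37 kb. Its regions had 22, 37, 27 and 28 Duroc reads and 4, 4, 0 and 0 Luchuan reads, and the 1 other region inside had 10 Duroc reads and no Luchuan read. Between 29.2 and 37.5 kb further on, MIGA1, which encodes mitoguardin 1 of the outer mitochondrial membrane, held a pair of regions of the opposite kind, with 29 and 31 Luchuan reads against 1 and 1 Duroc reads. The pair spanned only 0.420 kb. The other 8 regions of MIGA1 had a median log2 ratio of -0.19. On the other side, a region at an edge of NEXN, the gene of the Z-disc protein nexilin, held 1115 Duroc and 671 Luchuan reads. Its log2 ratio was -0.17, and without strand the annotation does not tell which edge is the start of the gene.

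Opposite directions within 100 kb occurred at another 3 places. In SEMA5A, a semaphorin gene on chromosome 16, a region with 23 Duroc reads and 1 Luchuan read lay 17.2 kb from one with 26 Luchuan and 4 Duroc reads. Between them lay 2 other regions, one with 369 Duroc and 225 Luchuan reads and one, beside the Duroc region, with 132 and 16. Within the first 20 kb of chromosome 8, a region with 44 Duroc reads and 0 Luchuan reads lay 15.3 kb from one with 32 Luchuan and 3 Duroc reads, and the nearest annotated gene was PIGG. Further along chromosome 8 a region with 40 Duroc and 2 Luchuan reads lay 79.7 kb from the one with 53 Luchuan reads described above.

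The remaining long runs differed in what lay between their members. On chromosome 7 from 55966957 to 56017730, 3 Duroc regions with 32, 29 and 120 Duroc reads and 4, 0 and 2 Luchuan reads enclosed 7 other regions. All 7 were at least 2-fold higher in Duroc, with a median log2 ratio of -1.62, and kept 10 to 23 Luchuan reads each. On chromosome 1 from 138375047 to 138471606, 3 regions had 23, 21 and 33 Duroc reads and 3, 5 and 5 Luchuan reads, the last of them inside MEF2A, a myocyte enhancer factor gene. There 20 other regions lay between the members, with a median of -0.63, and 3 of them were 2-fold higher in Duroc. In SLC12A2, the gene of a sodium, potassium and chloride cotransporter, 3 Duroc regions had 35, 53 and 46 Duroc reads and 1, 2 and 3 Luchuan reads, while the 9 other regions between them had a median of -0.29.

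In Luchuan, FNDC1, a gene with fibronectin domains on chromosome 1, held 2 regions with 21 and 32 Luchuan reads and 4 and 2 Duroc reads. All 9 regions between them were at least 2-fold higher in Luchuan, with a median log2 ratio of 3.21. On chromosome 17 from 63451750 to 63455262 a pair had 23 and 21 Luchuan reads against 5 and 2 Duroc reads.

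Regions higher in Duroc lay in or within 2 kb of an annotated gene for 318 of 455, or 69.9% (95% Clopper-Pearson interval, 65.4% to 74.1%), against 78.5% of all regions with 20 or more Duroc reads. For Luchuan these values were 47 of 93, or 50.5% (40% to 61.1%), against 78.7%. Both shares were thus lower than those of the regions from which they came, which lay above the intervals. The intervals treat regions as independent, although 12.5% of Duroc and 12.9% of Luchuan regions lay in runs. The members were also weaker, with medians of 25 Duroc and 23 Luchuan reads, against 79 and 59 in those regions, and shorter. Whether other weak or short regions lie at genes as seldom was not tested. The 137 Duroc and 46 Luchuan regions outside genes lay a median of 24.5 kb and 41.2 kb from the nearest gene. Within 1 Mb of the first base or the last annotated position of a chromosome lay 9 of the Duroc regions, or 1.98%, against 2.45%, and 6 of the Luchuan regions, or 6.45%, against 2.52%.

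The Duroc regions touched 314 genes, of which 20 held more than 1 region, and the Luchuan regions 45 genes, of which 4 did. These were long genes for the most part. EXOC4 of the exocyst complex, with 802 kb, held 2 Duroc regions among 50 regions in all, and AGAP1 held 2 among 48. SOX6, a transcription factor that represses slow fiber genes in muscle, held 2 among 147, with 23 and 22 Duroc reads and 3 and 5 Luchuan reads. Its other 145 regions had a median log2 ratio of -0.32.

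Other hosts of 2 Duroc regions were MYO10, an unconventional myosin, FOXJ3, a forkhead factor, TRIM33, a ubiquitin ligase, NCOA1, NBAS, STAU2, CRCP, KHDRBS2, FAM155A, KIAA0895 and C14H10orf76. At TRIM33 the reads were 59 in Duroc and 3 in Luchuan for one region and 20 and 5 for the other, and the 2 remaining regions of the gene had a median log2 ratio of -0.07. The 2 members of KIAA0895 spanned 0.331 kb and those of FAM155A 0.371 kb. In FAM155A the direction was mixed, since of its 13 other regions 6 were at least 2-fold higher in Luchuan and 1 in Duroc. The lncRNA genes LOC102162098, which overlaps SLC12A2, LOC102159394 and LOC110259968 held 3, 2 and 2. In SEMA5A, which held 2 Luchuan regions and 1 Duroc region, 10 of the other 20 regions were at least 2-fold higher in Luchuan.

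The gene families listed because they often vary in copy number between pigs held 7 of these regions among 1383, or 0.506%, near the 0.401% of all autosomal regions. Of the SLA genes, which encode the class I and class II histocompatibility proteins, 21 were found with 21 regions, and 1 region, inside SLA-2 and within 2 kb of SLA-3, had 23 Luchuan and 4 Duroc reads. At 48.9 kb from it a region just outside the limit had 388 Duroc and 6 Luchuan reads. CYP2C36, a cytochrome P450 gene, held 1 Duroc region with 38 Duroc and 5 Luchuan reads, among 20 regions in 27 genes of that family. The 245 zinc finger genes found by symbol held 1201 regions, of which 5, or 0.416%, were members. Of these 4 were Duroc regions, at ZNF618, ZNF385B, ZNF470 and ZNF648, with 20, 30, 20 and 23 Duroc reads and 4 or 5 Luchuan reads, and 1 a Luchuan region, at ZNF385D, with 20 Luchuan and 5 Duroc reads. None was found at KIT and KDR, with 5 regions, at interferon genes, with 29, at C-type lectin and killer receptor genes, with 56, at UGT genes, with 6, at guanylate-binding protein genes, with 5, or at immunoglobulin and T cell receptor segments, with 39, and with so few regions each these zeros carry no information. Taste receptor genes held 1 region, which was not a member, and beta-defensin and PRAME genes held no region at all. Olfactory and vomeronasal receptor genes have no such symbols in the annotation used and were not analysed here.

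Sarcomere genes, with 715 regions in 19 genes, held 1 member, or 0.140%, against 0.401% of all autosomal regions, and a single region is too few to tell these shares apart. It lay in NEB, the gene of nebulin, which spans the thin filament, on chromosome 15 from 754410 to 754577, with 32 Duroc reads and 1 Luchuan read, a ratio of 21.6 (3.61 to 881). The median log2 ratio of the 12 other regions within 10 kb was -0.61.

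The regions were spread over the autosomes. Per 1000 regions with 20 or more Duroc reads, Duroc regions numbered between 2.37 on chromosome 9 (95% Clopper-Pearson interval, 1.36 to 3.85) and 5.68 on chromosome 11 (3.31 to 9.08). Luchuan regions numbered between 0 of 3330 on chromosome 10, which allows up to 1.11, and 3.05 on chromosome 16 (1.32 to 6), where 2 of the 8 lay in SEMA5A. By number, chromosome 1 held the most Duroc regions, 62, and chromosome 2 the most Luchuan regions, 10.

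**Figure D5:**
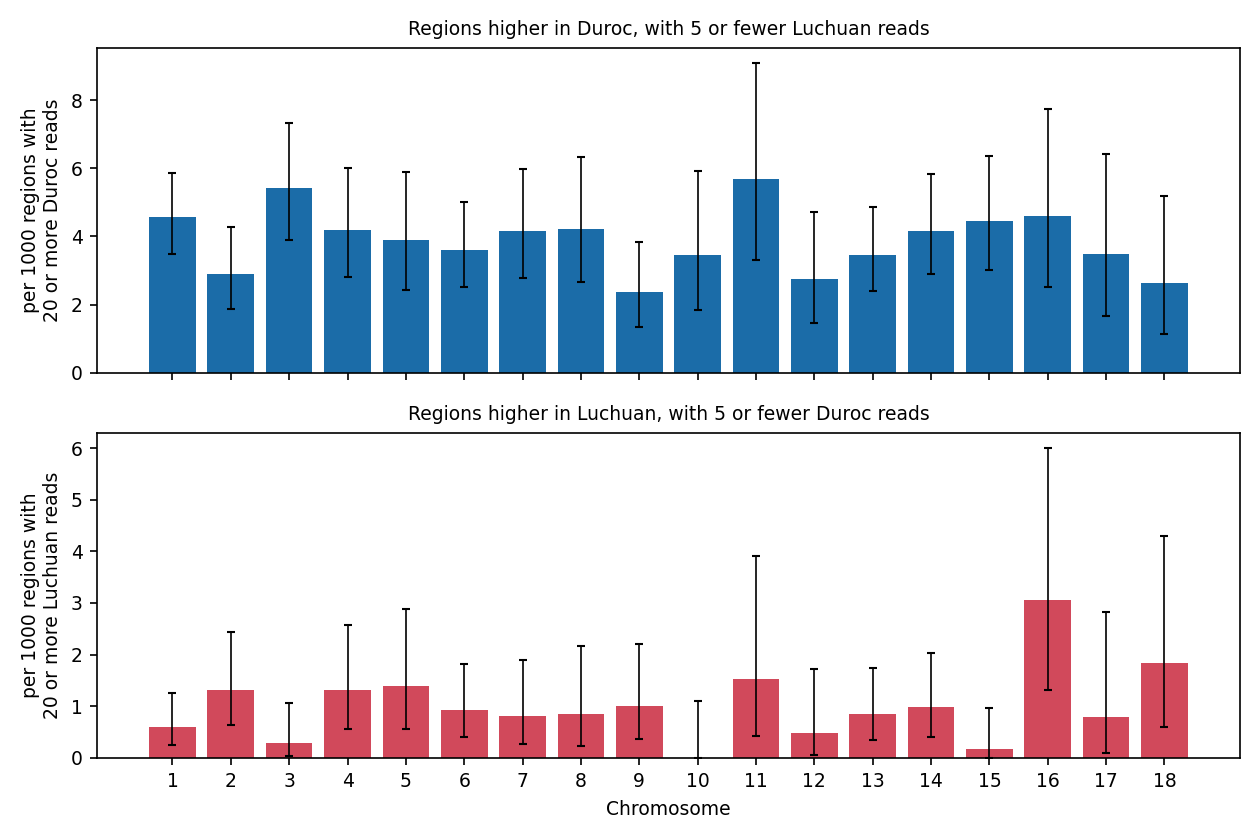
Regions nearly without reads in the other breed per 1000 autosomal regions with 20 or more reads in the same high breed (y axis), by chromosome (x axis), for Duroc (top) and Luchuan (bottom); error bars are 95% Clopper-Pearson intervals for counting error. Values run from 2.37 to 5.68 in Duroc and from 0 to 3.05 in Luchuan.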

How the data were processed

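ATAC-seq of the back muscle of both breeds, 3 boars each, was used, and their RNA-seq was not analysed here. Per the labels and the study's methods, low-quality sequence was removed with Trimmomatic (version 0.36), Bowtie2 aligned the reads to Sus scrofa 11.1, and MACS2 called peaks. For 217213 intervals the authors deposited a raw read count in each breed, a whole number not scaled for depth. The tool that counted reads, the removal of duplicates and the pooling of boars are not given in the sources used here. The count columns name the breed alone and were read as pooled. The table's columns of rescaled fold change, average signal and p-value were not used.

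Starts, read as counted from 0, are given counted from 1. Intervals sharing at least 1 base were merged and the longest kept. The members were the regions of chromosomes 1 to 18 with 5 or fewer reads in one breed and 20 or more in the other. Log2 ratios used a pseudocount of 1 and Luchuan reads multiplied by 1.48. A fold against 0 reads was set against 3 reads and lies above the lower limit of its 95% interval. No test between animals was possible, so no test for replicated counts was run. Fold changes and shares carry 95% Clopper-Pearson intervals, which cover counting error only. Genes were 26902 RefSeq genes of Sscrofa11.1 on these chromosomes, each assigned the regions whose midpoint lay in its body or within 2 kb.

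The text names the 10 members with the most reads and the 3 runs with the most members in each direction, genes that hold these or 2 or more members, and genes of the listed families that hold a member. Members without a read in the low breed, pairs in opposite directions and the regions around members were chosen after values were seen. The members and lists were chosen with earlier results of these data known. Alternatives covered the limits, the scaling, the merging, the gaps of runs and the windows around genes. A few genes that this rule or the marker lists hold are not reported here. The search for members and runs was tested on simulated data. Python 3.11.15 with pandas 2.3.3, NumPy 2.4.6 and SciPy 1.17.1 were used, and the plots were drawn with Matplotlib 3.10.9.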

Additional observations from a re-analysis of the deposited data

How the results depend on the processing

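The numbers of regions depended on the limits. The numbers higher in Duroc and in Luchuan were 150 and 31, with a share of 0.150%, at 3 or fewer reads in the low breed, 25 and 6 (0.0257%) at 0 reads, 3806 and 774 (3.80%) at 10 or fewer, and 146 and 20 (0.164%) at 30 or more reads in the high breed. Multiplying the Luchuan reads by the median ratio or by the ratio of total reads in the autosomal regions, 1.51, gave 150 and 494 (0.501%) each time. Both factors put the limits at the same whole numbers of reads, so these equal values were fixed in advance. Dividing the Duroc reads by the median ratio, an alternative chosen after seeing the data, gave 146 and 253 (0.364%). Counting every row gave 0.281% and adding chromosomes X and Y 0.505%, with both numbers within 1.5 times. The 2 other ways of merging changed neither number by more than 2.

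Duroc regions in runs numbered 86 with a gap of 200 kb, 19 as consecutive regions and 15 at 3 or fewer Luchuan reads, and Luchuan regions 6 as consecutive regions. With 10 kb on both sides of genes, 78.5% of Duroc regions were at a gene. The median log2 ratio of neighbours within 10 kb, -0.42 in Duroc and 1.37 in Luchuan, kept its direction under the scalings, distances and pseudocount tried, and was -0.38 and 1.11 without members in runs, also chosen after seeing the data. A single Duroc region was 500 bases or longer, with 0 Luchuan reads per kb, and no Luchuan region was that long. Unplaced sequences were not analysed here. No paired analysis was possible because each breed has 1 pooled count without replicate numbers, and for the same reason no boar could be left out. Low counts limit most of these regions to a wide interval of the fold change.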

Other observations

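The sex chromosomes lie outside the rule. On X, 60 regions met the same limits as higher in Duroc and 0 as higher in Luchuan, and on Y these numbers were 14 and 3, with Luchuan reads unscaled. With X and Y added, the share in either direction was 0.505% of 123693 regions, against 0.455% of 120531 on the autosomes. A share for X or Y alone was not computed, so these counts are not read as a difference from the autosomes.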
